A study of Mus musculus with 12 samples.

Results

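The 10 core circadian clock genes examined here, Arntl, Clock, Npas2, Per1, Per2, Per3, Cry1, Cry2, Nr1d1 and Dbp, were chosen by name, and each was found under its symbol among the 22609 gene symbols counted. They were measured by RNA-seq in 12 libraries of C57BL/6J mice, 3 from females and 3 from males for each of 2 tissues, the dorsal root ganglion (DRG), which holds the cell bodies of sensory neurons, and the hind paw. The study set females against males within each tissue. The labels of the 4 groups give mice aged between 8 and 14 weeks that had received 20 µl of saline in the paw, whereas the methods speak of naïve mice, with females in the estrous phase. The ganglia were L3–L5 from the left and right sides, and the hind paw was sampled with a biopsy punch through epidermis and dermis that also took some fat and, by the methods, no muscle. For the library preparation the labels name a stranded kit with ribosomal RNA depletion and the methods name oligo-dT primers. The time of day at which tissue was taken and the lighting schedule are not given in the sources used here. The labels number the libraries of a group 1 to 3 and do not say whether libraries of the same group came from separate mice, so p-values measure the spread between these libraries.

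In mammalian cells the clock is a feedback loop of transcription. BMAL1, the product of Arntl, pairs with CLOCK or its relative NPAS2 and switches on the Per, Cry, Nr1d1 and Dbp genes, whose PER and CRY proteins return to block the pair and whose REV-ERBα protein, the product of Nr1d1, represses Arntl. In mouse tissues outside the brain's pacemaker, Arntl and Npas2 therefore peak at an opposite time of day to Nr1d1, Dbp and the Per genes, while Clock changes little, and skin and sensory ganglia are both known to hold such clocks.

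The reads falling on genes numbered 6866545 to 13470783 in a library. Male paw library 2 had the fewest, and it stood apart in that 13.6% of its listed reads lay on genes, against 23.8% to 28.1% in the other 11 libraries. Values are given as normalized read counts, the reads of a gene divided by a library's median-scaled size and brought to the mean size of 10907780 reads. All 10 genes passed the filter of at least 10 reads in at least 3 libraries, in each tissue and over the 12 libraries together.

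Arntl (ENSMUSG00000055116), which encodes the partner shared by CLOCK and NPAS2, is found in mm9 at 120350979 to 120457636 of chromosome 7. Its normalized counts in DRG were 160, 153 and 114 in females and 182, 175 and 141 in males. In the hind paw they were 716, 654 and 668 in females and 907, 858 and 825 in males. Every DRG library lay below every paw library, and library 3 was the lowest of its group in DRG of each sex. In the paw the sexes did not overlap, with males higher. Arntl was lower in DRG by a log2 fold change of -2.31 (standard error 0.09, adjusted p = 3.11e-11). This and the following adjusted p-values for the tissues came from edgeR's quasi-likelihood test over the 15666 genes tested, with Benjamini-Hochberg adjustment, and a log2 fold change below 0 means a lower level in DRG. These are bulk tissues, so fewer cells of a type and less RNA per cell cannot be told apart in any of these differences.

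Clock (ENSMUSG00000029238, chromosome 5 from 76639992 to 76733817) encodes the DNA-binding partner of BMAL1. Its normalized counts were 1690, 1609 and 1677 in female DRG, 1668, 1781 and 1629 in male DRG, 3461, 3536 and 3240 in female paw and 4204, 3866 and 3885 in male paw. The libraries of a group lay close together, the tissues did not overlap, and Clock differed by a log2 fold change of -1.14 (standard error 0.05, adjusted p = 1.31e-10). Npas2 (ENSMUSG00000026077, chromosome 1 from 39250576 to 39420079), which can stand in for Clock, had 76.1, 63.9 and 58.8 in female DRG and 56.1, 65.8 and 56.9 in male DRG. In the paw its normalized counts were 408, 331 and 206 in females and 515, 358 and 410 in males. All 6 paw libraries were above all 6 DRG libraries, although female paw library 3 was low for its tissue. The log2 fold change of Npas2 was -2.55 (standard error 0.17, adjusted p = 8.2e-09). In DRG its SD of 0.16 between libraries of a group, on the log2 scale, was no larger than the 0.18 that counting alone gives at a mean of 62.5 reads.

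The Per genes encode the PER proteins of the repressing complex. Per1 (ENSMUSG00000020893, chromosome 11 from 68908719 to 68923462) had normalized counts of 1011, 1268 and 1147 in female DRG, 800, 1006 and 1064 in male DRG, 3232, 3795 and 3883 in female paw and 3440, 2986 and 3461 in male paw. The 2 tissues lay far apart and the sexes overlapped in each, and Per1 was lower in DRG with a log2 fold change of -1.73 (standard error 0.09, adjusted p = 6.06e-10). Per2 (ENSMUSG00000055866, chromosome 1 from 93312561 to 93355907) had 240, 279 and 317 in female DRG and 265, 224 and 225 in male DRG. Its normalized counts in the paw were 338, 544 and 1041 in females and 433, 492 and 528 in males. Female paw library 1 was the lowest of the 6 paw libraries and female paw library 3 the highest, at 3.08 times the value of library 1, and the DRG libraries still lay below both. The log2 fold change of Per2 was -1.11 (standard error 0.21, adjusted p = 0.000302).

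Per3 (ENSMUSG00000028957, chromosome 4 from 150377761 to 150418774) had normalized counts of 489, 516 and 603 in female DRG, 497, 486 and 544 in male DRG, 713, 794 and 1113 in female paw and 631, 511 and 551 in male paw. It was the only core gene whose tissues overlapped, because male paw libraries 2 and 3 fell within the range of DRG. Per3 was lower in DRG by a log2 fold change of -0.43 (standard error 0.11, adjusted p = 0.00196). In females alone it was -0.71 (adjusted p = 0.00369 from edgeR), and in males alone it was -0.17 and did not pass (adjusted p = 0.175 from edgeR).

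The Cry genes encode the cryptochromes that repress CLOCK and BMAL1 directly. Cry1 (ENSMUSG00000020038, chromosome 10 from 84594447 to 84647799) had normalized counts of 112, 139 and 139 in female DRG, 139, 145 and 143 in male DRG, 254, 292 and 372 in female paw and 353, 305 and 394 in male paw. The DRG libraries were nearly level and all below the paw libraries, with a log2 fold change of -1.27 (standard error 0.11, adjusted p = 1.15e-07). Cry2 (ENSMUSG00000068742, chromosome 2 from 92243803 to 92274200) had 946, 1134 and 1151 in female DRG, 1148, 978 and 1085 in male DRG, 1264, 1486 and 1798 in female paw and 1492, 1378 and 1426 in male paw. The tissues did not overlap but lay close, and the log2 fold change of Cry2 was -0.46 (standard error 0.08, adjusted p = 0.000222).

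Nr1d1 (ENSMUSG00000020889, chromosome 11 from 98629246 to 98636647) encodes REV-ERBα, the repressor of Arntl. Its normalized counts were 482, 544 and 446 in female DRG, 399, 430 and 427 in male DRG, 2759, 3043 and 2850 in female paw and 3077, 2632 and 2501 in male paw. Each paw library was far above each DRG library, and the DRG libraries of females were all above those of males. With a log2 fold change of -2.63 (standard error 0.07, adjusted p = 8.93e-13), Nr1d1 lay at the far end of the 10 genes with Npas2, and the order of these 2 was not settled, since in males alone Npas2 had -2.86 and Nr1d1 -2.72. Dbp (ENSMUSG00000059824, chromosome 7 from 52960458 to 52965525) encodes a transcription factor through which the clock reaches output genes. It had 163, 198 and 195 in female DRG, 120, 133 and 206 in male DRG, 314, 456 and 516 in female paw and 315, 298 and 333 in male paw. The tissues did not overlap, the 3 male paw libraries were nearly level, and the log2 fold change of Dbp was -1.13 (standard error 0.15, adjusted p = 8.44e-06).

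The strand setting used for counting is not given in the sources used here, which bears on genes that overlap others. Of the exon bases of Nr1d1, 8.42% are shared with Thra on the opposite strand, of those of Dbp 16.7% with Sphk2, and of those of Cry2 4.67% with D930015M05Rik. Reads from these bases cannot be assigned with certainty, while the exons of the other 7 genes overlap no other annotated gene.

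**Figure D1:**
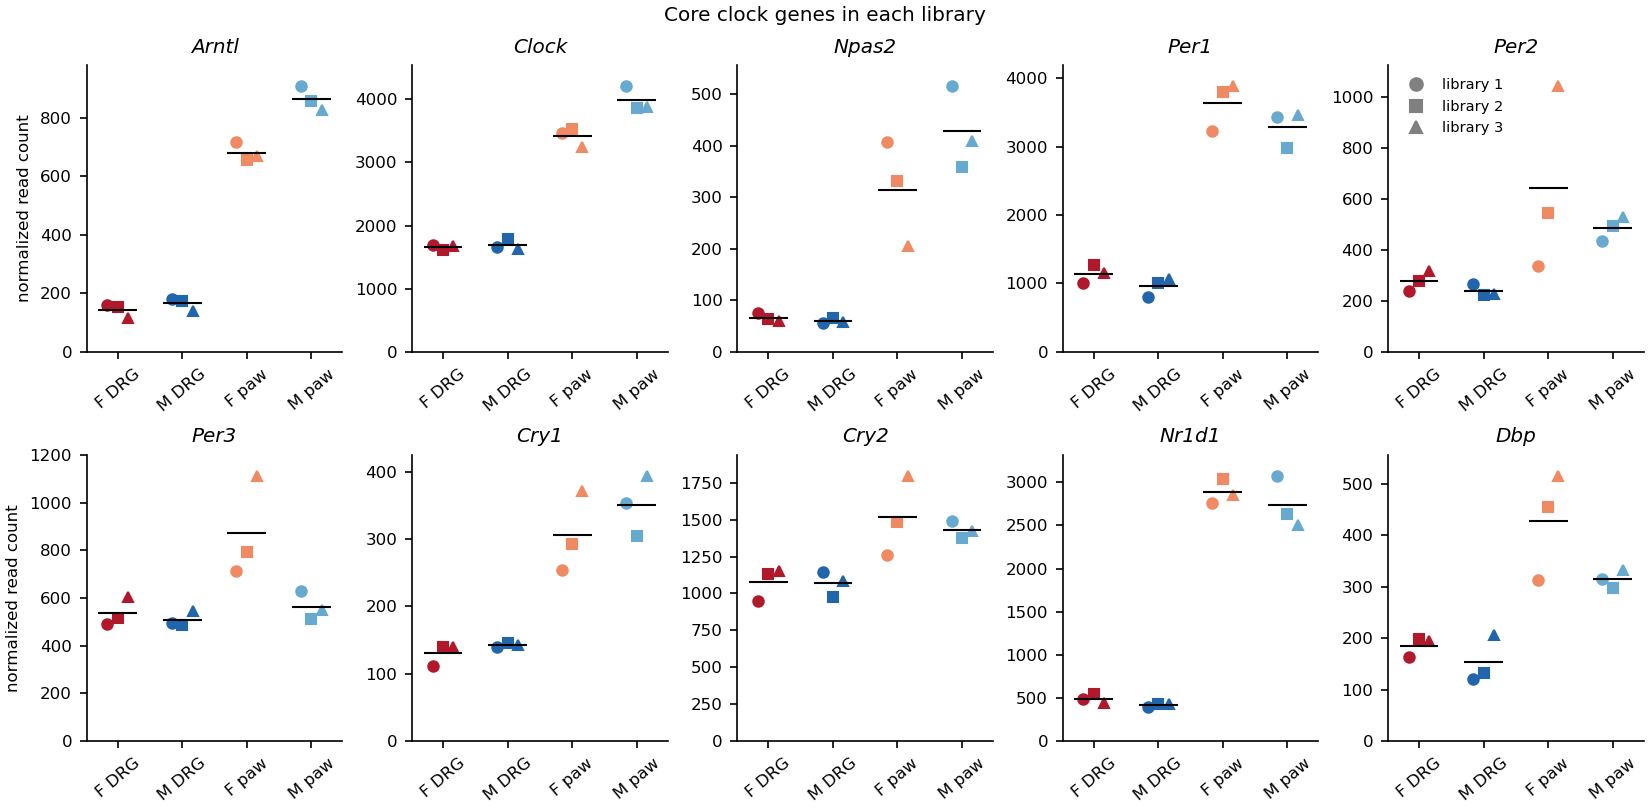
Normalized read count of each of the 10 core clock genes (vertical axes, starting at 0) in the 12 libraries, by group (horizontal axes, F for female and M for male). Points are libraries, with their shape giving the library number, and lines are the means of the 3 libraries. In each gene but Per3 the DRG libraries lie below all paw libraries.

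All 10 core clock genes were thus lower in DRG at an adjusted p below 0.05, where 42.6% of the genes tested were lower in DRG and 43.1% were higher. Since most genes differ between these tissues, a call by itself is common. All DRG libraries lay below all paw libraries for 9 of the 10 genes, against 34.8% of the genes tested, and 8 were called and lower by more than 2-fold, against 23.8%. The median log2 fold change of the 10 genes was -1.20, and that of all genes tested was 0.00. The differences ranged from under 1.4-fold for Per3 and Cry2 to more than 4.9-fold for Arntl, Npas2 and Nr1d1, so the core genes were not shifted by a common factor.

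The order of the core genes was compared per length, as RPKM, the scaled reads divided by exon length and library size. In DRG, Clock (17.4 ± 0.623, SD, n = 6), Per1 (17.1 ± 2.56), Cry2 (15.6 ± 1.31) and Nr1d1 (13.3 ± 1.51) had the highest RPKM. Their ranges overlapped from each to the next. Dbp (5.26 ± 1.13), Per3 (4.99 ± 0.43), Arntl (4.84 ± 0.767), Cry1 (4.15 ± 0.368) and Per2 (4.06 ± 0.565) formed a lower tier, in which only Per3 and Cry1 had ranges apart from each other, and Npas2 (1.2 ± 0.144) lay below all of them. In the hind paw, Nr1d1 had the highest RPKM (82.5 ± 6.65), followed by Per1 (56.4 ± 5.49), Clock (38.4 ± 3.63), Arntl (24.2 ± 3.33) and Cry2 (21.4 ± 2.61). The ranges of Nr1d1, Per1 and Clock were apart from each other, and those of Arntl and Cry2 overlapped. Dbp (11.6 ± 2.83), Cry1 (9.99 ± 1.62), Per2 (8.83 ± 3.86), Npas2 (7.11 ± 1.96) and Per3 (6.86 ± 2.09) overlapped in the lowest tier. Arntl and Dbp were thus within each other's range in DRG, while in the paw every library had more Arntl than Dbp per length.

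Beyond the core, 22 other genes of the clock were measured, and in DRG against paw 15 were called lower in DRG, 6 higher and 1 not, around a median of -0.63 in log2 fold change. The most reduced in DRG were Rora (-5.18, standard error 0.11, adjusted p = 1.64e-13 from edgeR) and Gm129 (-3.49, standard error 0.17, adjusted p = 3e-10 from edgeR). The product of Rora activates Arntl. Gm129, also known as Ciart, encodes a repressor of the CLOCK and BMAL1 pair. Rora had normalized counts between 75.1 and 105 in DRG and between 2826 and 3818 in the paw. Rorb is among the 15 but passed the filter through the paw alone, with normalized counts of at most 4 in DRG and 10.5 to 30.8 in the paw, so nothing is drawn from its difference. Those higher in DRG were led by 3 genes of ubiquitin ligases that act on CRY or PER proteins, Fbxl21 (2.22, standard error 0.18, adjusted p = 5.75e-08 from edgeR), Btrc (1.95, standard error 0.08, adjusted p = 5.27e-11 from edgeR) and Fbxw11 (0.93, standard error 0.05, adjusted p = 7.67e-10 from edgeR). Btrc had normalized counts of 749 to 923 in DRG and 193 to 269 in the paw. Nampt, a clock-driven gene of NAD synthesis, was the gene not called, at -0.16 (standard error 0.09, adjusted p = 0.112 from edgeR).

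**Figure D2:**
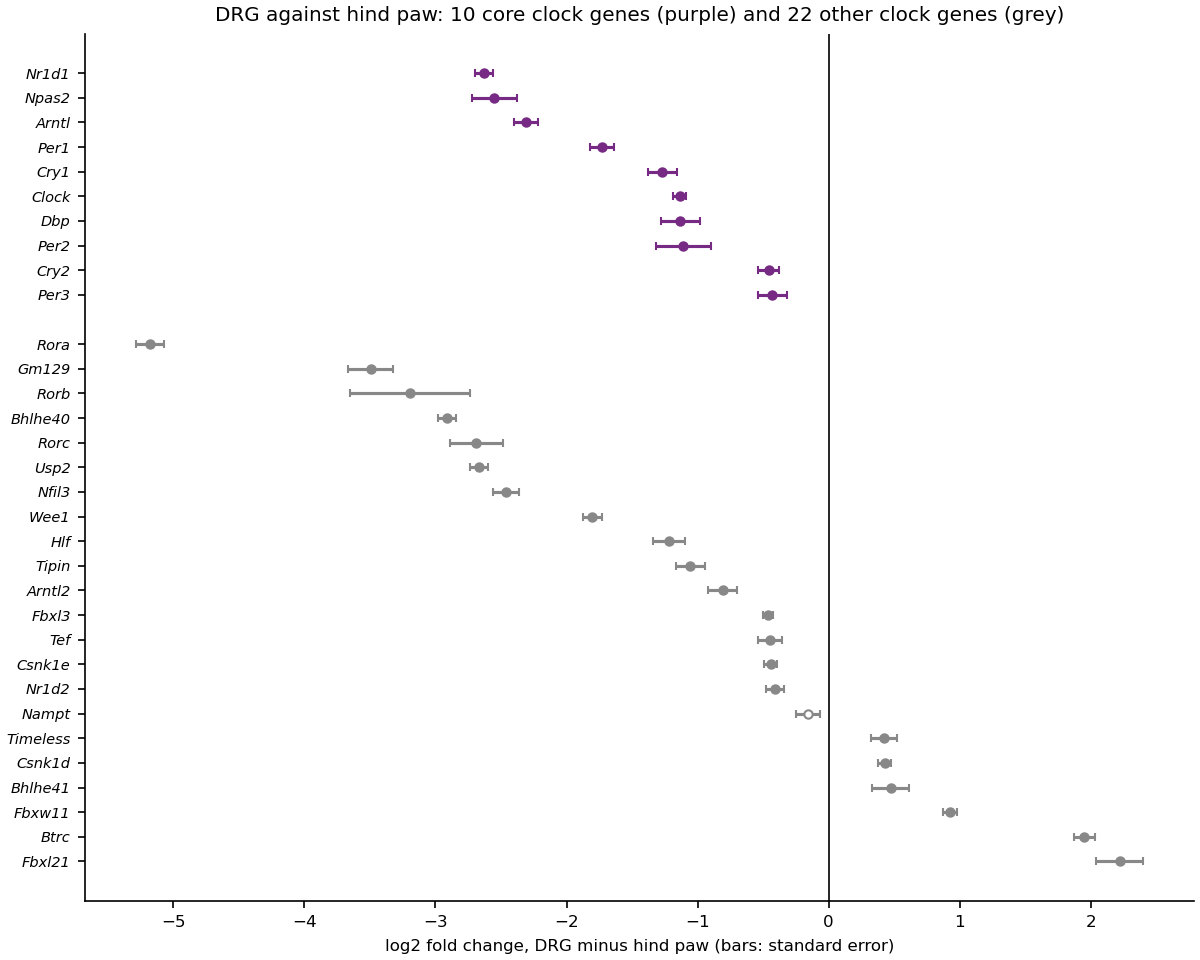
Log2 fold change of DRG minus hind paw (horizontal axis) for the 10 core clock genes (purple) and 22 other clock genes (grey), each sorted by value. Points are estimates over 12 libraries, bars are standard errors, and the open point, Nampt, did not pass an adjusted p of 0.05. All core genes lie left of 0, between -2.63 and -0.43.

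Markers of cell types were read beside the clock genes, and the lists given here do not cover all cells of either tissue. In DRG all 8 sensory neuron markers were called higher, and their log2 fold changes had a median of 8.48. The summed normalized counts of the neuron markers, of which Scn10a was the most abundant, were 42951 to 58034 in DRG and 251 to 458 in the paw. All 6 keratinocyte markers, led by Krt10, were called higher in the paw, with sums of 324507 to 553399 there and 244 to 744 in DRG. All 7 skeletal muscle markers were called higher in the paw too, and their sums ran from 17806 to 96093 in the paw, where Acta1 was the most abundant, and from 960 to 4486 in DRG, except for 15652 in male DRG library 1. All 4 fibroblast markers, 3 of 5 adipocyte markers and 3 of 3 tested leukocyte markers were called higher in the paw, and 2 of 2 tested erythroid and 2 of 2 tested bone markers higher in DRG, with Hbb-b1 and Hba-a1 at 0 in every library. Female DRG library 1 stood apart, with an adipocyte sum of 1594. The other DRG libraries had 251 to 480 and the paw libraries 724 to 1113. Its leukocyte sum of 686 was the highest in DRG, where the others had 238 to 443. What these mixtures contribute to the lower core clock genes in DRG was not tested.

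The sexes were then compared within each tissue, where a log2 fold change above 0 means a higher level in females. In DRG, 0 of the 10 core genes were called by edgeR's quasi-likelihood test at an adjusted p below 0.05, against 0.0484% of the 14456 genes tested, and 0 by DESeq2. At an unadjusted p below 0.05 there were 2, against 6.01% of the genes tested, Nr1d1 (0.25, standard error 0.09, unadjusted p = 0.0217, adjusted p = 0.743 from edgeR) and Per1 (0.28, standard error 0.12, unadjusted p = 0.0389, adjusted p = 0.743 from edgeR). Without male DRG library 1 the value of Per1 was 0.16 (standard error 0.09). That library had the highest skeletal muscle sum in DRG and the lowest leukocyte and erythroid sums. Its sum of genes induced by glucocorticoids, 9261, was also the lowest, against 10919 to 13339 in the other DRG libraries. The part of these traits in the change of Per1 was not tested. Of the core genes, the sexes did not overlap in Nr1d1 alone, with females higher, and 12.3% of the genes tested did not overlap. Of the 21 other clock genes tested in DRG, 2 had an unadjusted p below 0.05, each higher in females with no overlap. They were Wee1 (0.46, standard error 0.09, unadjusted p = 0.00093, adjusted p = 0.743 from edgeR) and Nfil3 (0.49, standard error 0.19, unadjusted p = 0.0285, adjusted p = 0.743 from edgeR). The median log2 fold change of the 10 genes was 0.14 and that of all genes tested 0.00. Of the cell markers, 3 of 3 tested leukocyte and 2 of 2 tested erythroid markers had an unadjusted p below 0.05 from edgeR, all higher in females. Leukocyte sums were 686, 441 and 443 in females and 238, 386 and 358 in males. Erythroid sums were 377, 350 and 232 in females and 55, 183 and 207 in males. Of 4 fibroblast markers only Col1a1 (0.57, standard error 0.16) was below that p. All 8 neuron markers were lower in females, 0 below it. The part of these markers and genes in the differences of the clock genes was not tested.

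In the hind paw, 0 of the 10 core genes were called by edgeR, against 0.154% of the 14316 genes tested. DESeq2 called 1 of them, Per3, with an adjusted p of 0.0157. It called more genes of all kinds, 85 higher and 125 lower in females, where edgeR called 11 and 11. At an unadjusted p below 0.05 edgeR gave 4 of the 10, against 9.74% of the genes tested. Arntl was lower in females by a log2 fold change of -0.33 (standard error 0.08, unadjusted p = 0.00324, adjusted p = 0.221 from edgeR) and Clock by -0.21 (standard error 0.08, unadjusted p = 0.0283, adjusted p = 0.427 from edgeR). Per3 was higher in females, at 0.64 (standard error 0.17, unadjusted p = 0.00521, adjusted p = 0.248 from edgeR), as was Dbp, at 0.45 (standard error 0.17, unadjusted p = 0.0318, adjusted p = 0.443 from edgeR), although without female paw library 3 Dbp had 0.29 (standard error 0.17). The female and male paw libraries did not overlap in Arntl, Clock and Per3, that is 3 of the 10 genes, against 15.2% of the genes tested, and they overlapped in Dbp. The median over the 10 genes was 0.09 and over all genes tested -0.01. Markers of other cells differed between the sexes in the paw as well. The summed fibroblast markers were 59297, 47976 and 45199 in females and 110579, 75175 and 85438 in males, with an unadjusted p below 0.05 for 2 of the 4, Col1a1 (-1.21, standard error 0.21) and Col1a2 (-0.92, standard error 0.17). The leukocyte markers, led by Itgam (-0.58, standard error 0.10), summed to 1150, 1144 and 1009 in females and 1614, 1322 and 1432 in males, with 2 of 3 below that p. The keratinocyte markers, led by Krt10, summed to 366275, 426343 and 324507 in females and 553399, 521734 and 464857 in males, with 3 of 6 below it. Of these, Krt1 (-0.91, standard error 0.20) and Krt10 (-0.37, standard error 0.16), which make up most of the sum, were lower in females and Lor (0.41, standard error 0.14) higher, and Krt5, Krt14 and Trp63 lay between -0.11 and 0.02. The neuron markers summed to 371, 330 and 251 in females and 458, 406 and 421 in males, which rests on Tubb3 (-0.64, standard error 0.22), the only 1 of 6 below that p, whereas the other 5 were at 0.02 to 0.55. In the sums of these 4 lists every female library lay below every male library, but single markers of the keratinocyte, leukocyte and neuron lists went the other way, and their part in the differences of the clock genes was not tested. The sums of adipocyte and skeletal muscle markers overlapped between the sexes. Skeletal muscle markers were abundant in the paw, although the methods speak of no muscle in the biopsy, with sums of 55000, 17806 and 64569 in females and 20994, 96093 and 72092 in males. With their level as a covariate, an alternative added after the data were seen, the log2 fold changes of Arntl and Per3 were -0.33 and 0.64 (adjusted p = 0.072 and 0.0598 from edgeR).

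Whether the sex effects differed between the tissues was tested by their interaction over the 12 libraries. For this, 0 of the 10 core genes were called by edgeR, against 0.0128% of the 15666 genes tested, and 0 by DESeq2, and 1 had an unadjusted p below 0.05, against 7.76% of the genes tested. That gene was Per3. Among the 22 other clock genes, 3 had an unadjusted p below 0.05, Hlf (-0.92, standard error 0.24, unadjusted p = 0.00199, adjusted p = 0.325 from edgeR), Usp2 (0.41, standard error 0.14, unadjusted p = 0.0103, adjusted p = 0.452 from edgeR) and Nfil3 (0.55, standard error 0.19, unadjusted p = 0.0137, adjusted p = 0.469 from edgeR). Hlf, a relative of Dbp, had normalized counts of 1307, 1506 and 2014 in female paw and 865, 797 and 804 in male paw, with no overlap, and a log2 fold change of 0.98 between them (standard error 0.15, unadjusted p = 0.000188, adjusted p = 0.0769 from edgeR), larger than that of Per3. In the same interaction, 3 of 3 tested leukocyte and 2 of 4 fibroblast markers had an unadjusted p below 0.05 from edgeR. So did 5 of 9 genes induced by glucocorticoids, but 0 of 6 keratinocyte and 0 of 7 skeletal muscle markers. Among those below it were Col1a1 (1.77, standard error 0.29), Itgam (1.14, standard error 0.24) and Fkbp5 (1.10, standard error 0.26). What these genes contribute to the values of the clock genes was not tested.

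How far libraries of a group lay apart differed widely between the core genes. The SD between libraries of a group, pooled over the sexes, was 0.58 for Per2 in the paw on the log2 scale, larger than in 93.8% of the genes tested there. For Npas2 it was 0.40 (percentile 86.8), for Dbp 0.27 (percentile 72.8) and for Per3 0.26 (percentile 71.4). Arntl and Clock stood at the other end, with an SD of 0.07 each in the paw and percentiles of 7.05 and 6.57. In DRG, Dbp varied most, with an SD of 0.31 (percentile 84.9), followed by Arntl with 0.23 (percentile 76.4), while Clock was again steady at 0.05 (percentile 8.01). Nr1d1 varied little in either tissue, with percentiles of 37.2 in DRG and 27.6 in the paw. The median percentile of the 10 genes was 55.4 in DRG and 59.6 in the paw, near the middle of all genes. The value for the paw rested on the females, since it was 29.7 without female paw library 1 and 36.7 without female paw library 3. The percentiles rank genes of few and many reads together, so they do not allow for counting error. Counting alone gives 0.04 for Per1 in DRG, against an SD of 0.19, and 0.06 for Per2 in the paw, against 0.58. For Cry1 in DRG it gives 0.12, against 0.13.

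**Figure D3:**
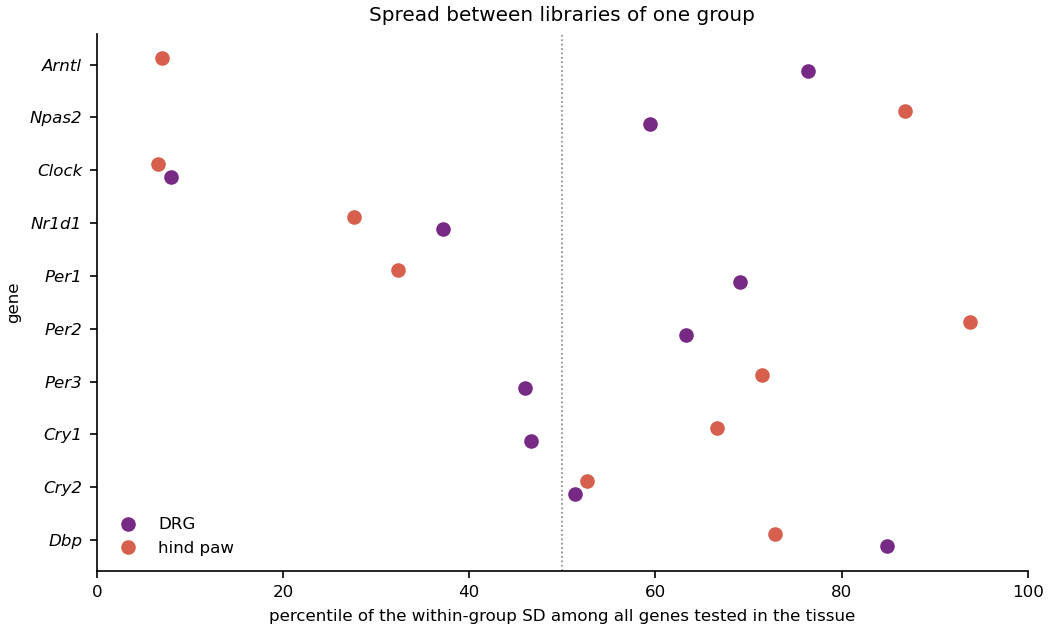
Percentile of the within-group SD of log2 normalized counts of each core clock gene (horizontal axis, 0 to 100) among all genes tested in DRG (purple) or in the hind paw (red). The dotted line marks the middle. Clock lies below 10 in each tissue, Arntl only in the paw, and Per2 in the paw is the highest at 93.8.

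In the female paw, several core genes had the same order of libraries. Library 1 was lowest and library 3 highest for 6 of the 10 genes, Per1, Per2, Per3, Cry1, Cry2 and Dbp, and Npas2 had the reverse order. Between those libraries, Per2 differed 3.08-fold, Dbp 1.64-fold, Per3 1.56-fold, Cry1 1.47-fold, Cry2 1.42-fold and Per1 1.2-fold, while Npas2 in library 3 was at 0.505 times its level in library 1. Arntl, Clock and Nr1d1 had neither order and differed little, at 0.933, 0.936 and 1.03 times. Of all genes tested in the paw, 15.8% had the order of Per2 and 17.1% the reverse. Per2 was taken as the reference after its values were seen, so its own place in this count is fixed. Among the other 22 clock genes, 5 had the order of Per2, namely Nr1d2, Tef, Hlf, Wee1 and Usp2, and 3 the reverse. The summed markers of fibroblasts, leukocytes and neurons had the reverse order of Per2 in these 3 libraries, being highest in library 1 and lowest in library 3. Those of skeletal muscle were lowest in library 2 and those of keratinocytes and adipocytes highest there. What these markers contribute to the order of the clock genes was not tested.

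In the male paw the core genes deviated from their group by at most 0.28 on the log2 scale, the value of Npas2 in library 1. In DRG, library 3 was low in Arntl in each sex, by -0.30 in females and -0.23 in males, and there Per3 was 0.18 and 0.10 above its group. Dbp was 0.47 above its group in male DRG library 3. Female DRG library 1 was the lowest of its group in Per1, Per2, Per3, Cry1, Cry2 and Dbp, by -0.13 to -0.21. It was the highest in Npas2, by 0.20, in Arntl, by 0.18, and in Clock, by 0.03. The same library had the highest adipocyte and leukocyte marker sums in DRG, and what these contribute was not tested.

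**Figure D4:**
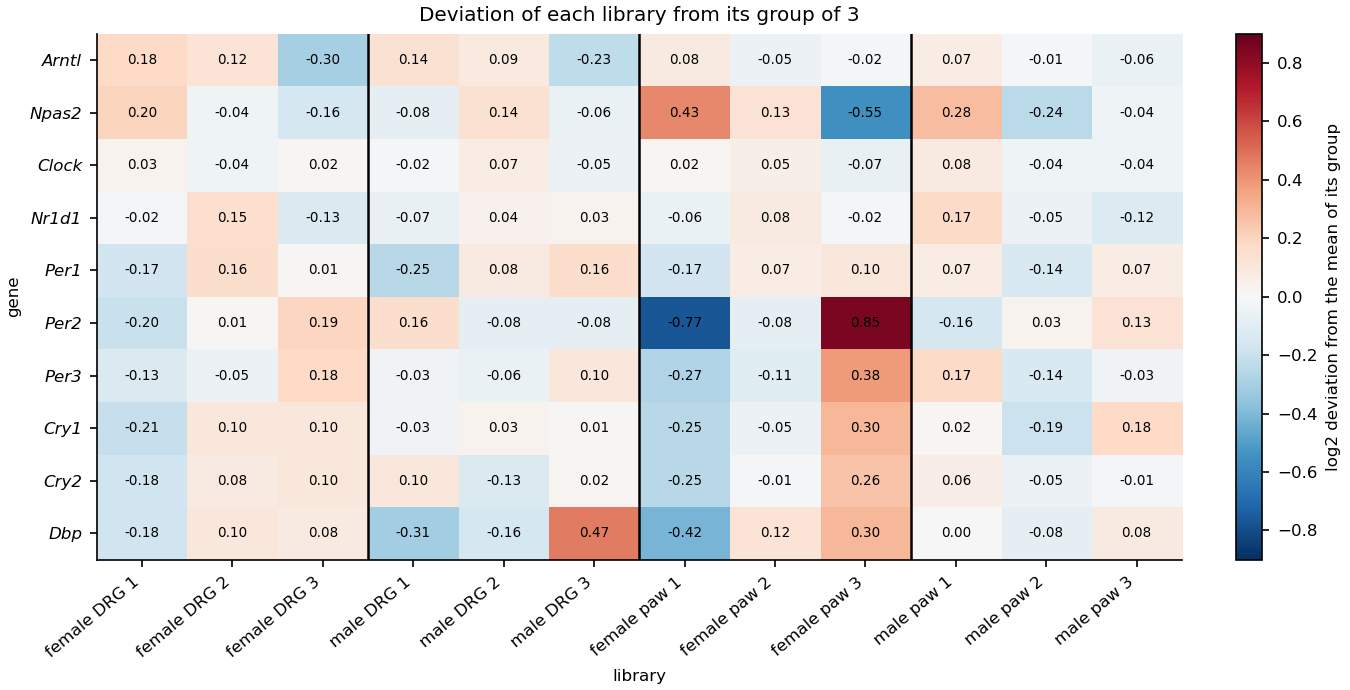
Deviation of each library (columns) from the mean of its group of 3, on the log2 scale, for the 10 core clock genes (rows). Red is above and blue below the group's mean, and black lines part the groups. The widest contrast is in the female paw, where Per2 runs from -0.77 to 0.85 and Npas2 the other way from 0.43 to -0.55.

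Agreement of phase between libraries was measured by the relation of Arntl to each of the other 9 core genes within a tissue, 18 relations in all, as correlations of log2 normalized counts over 6 libraries. In DRG, Per3 was highest where Arntl was lowest, with Pearson's r = -0.95 (exact permutation p = 0.00972, adjusted p = 0.175 over the 18 relations) and Spearman's rho = -0.83 (exact permutation p = 0.0583, adjusted p = 0.308). Without the 2 libraries farthest from the median of Arntl, r was -0.93. Dbp ran the same way, with r = -0.79 (exact permutation p = 0.0528, adjusted p = 0.2) and rho = -0.83 (exact permutation p = 0.0583, adjusted p = 0.308), and r was -0.96 without those 2 libraries. Per1 had r = -0.62 (exact permutation p = 0.186, adjusted p = 0.441), with a rho of -0.83 (exact permutation p = 0.0583, adjusted p = 0.308), and r was -0.39 without those 2 libraries. For the other 6 genes r lay between -0.58 for Per2 and 0.33 for Clock. All tests were 2-sided.

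In the hind paw the Arntl values fell into separate clusters by sex, 654 to 716 in females and 825 to 907 in males. A correlation pooled over the sexes therefore carries the difference between them. Pooled, r was 0.92 for Clock (exact permutation p = 0.0222, adjusted p = 0.2), -0.80 for Per3 (exact permutation p = 0.0514, adjusted p = 0.2), -0.80 for Dbp (exact permutation p = 0.0556, adjusted p = 0.2) and 0.71 for Npas2 (exact permutation p = 0.0875, adjusted p = 0.263), and the other 5 lay between -0.64 for Per1 and 0.31 for Cry1. On values centred on each sex's mean, Dbp had r = -0.68, Per2 -0.59, Cry1 -0.50, Per1 -0.48, Cry2 -0.38 and Per3 -0.12, while Npas2 had 0.59, Clock 0.48 and Nr1d1 0.37. On the same centred values in DRG, r was -0.97 for Per3, -0.71 for Dbp, -0.51 for Cry1, -0.45 for Per1, -0.43 for Cry2 and -0.39 for Per2. It was 0.65 for Npas2, 0.40 for Nr1d1 and 0.21 for Clock. The relation of Per3 in the paw thus depended on the difference between the sexes, being among the strongest when pooled and the weakest of the 9 when centred, and Dbp ran opposite to Arntl in each tissue either way. None of the 18 relations passed the adjustment, pooled or centred.

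Reads of 2 genes within a library can be compared with no normalization. In DRG there were 1.02, 1.29 and 1.7 Dbp reads per Arntl read in females and 0.659, 0.757 and 1.46 in males. In the paw the ratios were 0.439, 0.697 and 0.773 in females and 0.347, 0.348 and 0.404 in males. In each of the 4 groups the library numbered 3 had the highest ratio and the library numbered 1 the lowest, although male paw libraries 1 and 2 were all but equal. Of all genes tested, 1.81% had this order in their reads per Arntl read in all 4 groups, and Dbp was the only core gene that did. This order was noticed in the data. Library 3 had the most reads per Arntl read in all 4 groups for 5 of the other 9 core genes, Per1, Per2, Cry1, Cry2 and Dbp, against 10.9% of the genes tested. Since the order was noticed in Dbp, the place of Dbp in this count is fixed. All these ratios share the Arntl reads, which were low in library 3 of DRG. Per2 reads per Arntl read in library 3 were 2.77 in female DRG, 1.6 in male DRG, 1.56 in female paw and 0.64 in male paw, and those of Cry2 were 10.1, 7.69, 2.69 and 1.73. For Per3 the ratio was highest in library 3 in 3 of the groups, and in male paw it was highest in library 1, at 0.696. Whether libraries of the same number were collected at the same time is not given in the sources used here.

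**Figure D5:**
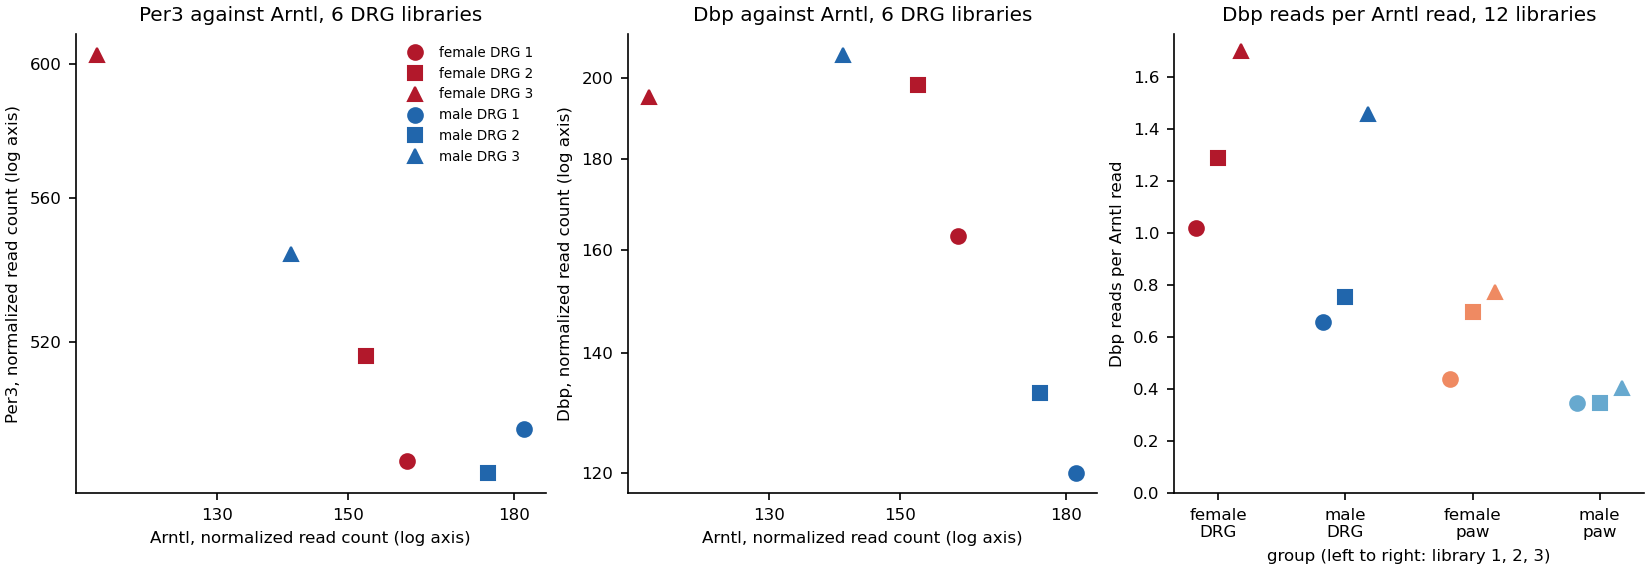
Left and middle, normalized counts of Per3 and Dbp (vertical, log axes) against Arntl (horizontal, log axes) in the 6 DRG libraries, red for females and blue for males. Right, Dbp reads per Arntl read in the 12 libraries by group, with libraries 1 to 3 from left to right. Per3 is highest, at 603, in the library with the least Arntl, at 114, and the ratio is highest in library 3 of each group.

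Genes most like Dbp and Arntl were sought among 14960 other genes, by Pearson's r of log2 CPM centred on each group's mean over the 12 libraries, as a description. The highest r with Dbp belonged to Haus1 (0.96), Skint4 (0.94), Ddit4 (0.93), 4930594C11Rik (0.92) and E230016M11Rik (0.90), and the lowest to Wnt10b (-0.91), Lrrc17 (-0.90), Cd200r1 (-0.89), Tmem185b (-0.89) and Rgs2 (-0.88). Of the core genes, Per1 came nearest to Dbp, at r = 0.80 and rank 44, and Arntl was far on the other side, at r = -0.64 and rank 14752. For Arntl the highest were Msx1 (0.93), Rnf113a1 (0.92), 9130401M01Rik (0.90), Fam176b (0.89) and A630033H20Rik (0.89), and the lowest Selp (-0.90), Trpc5 (-0.90), Bmp2 (-0.89), Hdac1 (-0.89) and Atg16l1 (-0.88). No test was run on these values.

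Since the core genes regulate each other through short DNA elements, their promoters were read for these elements, from 250 bases before to 50 after each start site. RefSeq (GRCm38.p6) gave 13 such windows for 9 of the 10 genes, all but Per2. The letters searched on both strands were CACGTG, the E-box that CLOCK and BMAL1 bind, its variant CACGTT, TTANGTAA, the D-box that DBP binds, and TAGGTCA and TGGGTCA, the half-sites that ROR and REV-ERB proteins bind after a stretch rich in A and T. CACGTG stood in windows of 2 of the 9 genes, Per1 and Cry1, against 8.09% of the 27025 genes with a window. CACGTT stood in 3, Cry1, Cry2 and Nr1d1, against 5.44%, TTANGTAA in 1, Per3, against 2.72%, TAGGTCA in 1, Arntl, against 2.97%, and TGGGTCA in none, against 4.57%. Different motifs overlapped in 36 of all 32851 windows. Windows of 4 genes are shown, 1 for each although Arntl and Per1 have 2, those of Arntl and Per3, which ran most strongly opposite in DRG, and of Per1 and Cry1, which hold the E-box, with these letters in capitals on either strand. They lie at chr7:113207261-113207560 on the plus strand, chr4:151044616-151044915 on the minus strand, chr11:69098699-69098998 on the plus strand and chr10:85185005-85185304 on the minus strand.
Arntl: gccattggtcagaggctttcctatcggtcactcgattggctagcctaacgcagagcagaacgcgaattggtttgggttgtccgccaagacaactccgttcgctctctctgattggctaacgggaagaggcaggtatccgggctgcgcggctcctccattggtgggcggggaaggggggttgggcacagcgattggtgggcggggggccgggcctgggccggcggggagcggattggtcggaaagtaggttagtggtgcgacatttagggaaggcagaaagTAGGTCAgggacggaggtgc
Per3: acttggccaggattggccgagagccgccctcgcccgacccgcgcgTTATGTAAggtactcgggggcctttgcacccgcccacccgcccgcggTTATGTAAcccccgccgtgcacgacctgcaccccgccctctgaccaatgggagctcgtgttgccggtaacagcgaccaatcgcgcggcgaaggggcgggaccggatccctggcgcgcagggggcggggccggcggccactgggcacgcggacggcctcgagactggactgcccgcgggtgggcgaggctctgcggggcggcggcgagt
Per1: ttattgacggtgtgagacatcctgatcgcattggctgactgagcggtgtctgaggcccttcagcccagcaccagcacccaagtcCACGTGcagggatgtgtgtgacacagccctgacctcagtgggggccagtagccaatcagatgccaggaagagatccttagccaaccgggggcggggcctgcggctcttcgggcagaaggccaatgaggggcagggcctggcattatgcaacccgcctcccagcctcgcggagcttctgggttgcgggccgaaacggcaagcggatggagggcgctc
Cry1: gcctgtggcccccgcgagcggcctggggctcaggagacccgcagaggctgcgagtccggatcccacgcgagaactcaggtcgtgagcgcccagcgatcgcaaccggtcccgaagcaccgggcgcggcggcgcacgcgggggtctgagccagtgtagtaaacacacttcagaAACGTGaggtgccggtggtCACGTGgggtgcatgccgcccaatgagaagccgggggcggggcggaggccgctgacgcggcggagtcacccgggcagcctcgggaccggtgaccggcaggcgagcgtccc

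In the Arntl window the TAGGTCA begins 30 bases after the start site, and the other window of Arntl, which starts upstream of it, holds none of the motifs. In the Per3 window the pair of D-boxes begins 205 and 158 bases before the start site. The other window of Per1 holds none of the motifs either. The E-box of Per1 begins 166 bases before the start site and that of Cry1 60 bases before it, with the variant, on the opposite strand, 79 bases before it. A match is a string of letters and does not show that a protein was bound there in these tissues.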

How the data were processed

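The authors aligned reads to mm9 with TopHat2 and counted them per gene with HTSeq, per the labels and the methods, which also name DESeq. The deposited values are raw read counts, with no normalization, and 5 categories of reads not assigned to a gene were left out. A floor of 3 reads, which is not the filter used for the tests, is 2.23e-05% to 4.37e-05% of the reads on genes and covers counting error only. Tests used edgeR 4.0.16 (quasi-likelihood, median-of-ratios factors) in R 4.3.3 over all genes with at least 10 reads in at least 3 libraries, and correlations used a pseudocount of 1. Gene positions and the exon lengths behind RPKM were taken from GENCODE on mm9, matched by symbol. Alternatives were TMM factors, DESeq2 1.42.0, no filter, the replicate number as a block, each sex alone, a 2-fold limit, all 12 libraries in a single fit, a pseudocount of 0.5, centring on sex and leaving out each library. A covariate of muscle markers was added after the data were seen. The members and lists were chosen with earlier results of these data known. Named genes are first the 10 members, the 3 largest called changes in each direction of each list (other clock, glucocorticoid-induced and immediate-early genes, and cell type markers by count) and the 5 highest and lowest correlations with Dbp and Arntl. Further genes of the lists are named for an unadjusted p between the sexes, for their order of libraries or for not being called, as the text says. The procedure was tested on simulated data. The letters of the ROR and REV-ERB half-sites were narrowed from TNGGTCA after the promoter matches had been seen.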

Additional observations from a re-analysis of the deposited data

Results flagged for a closer look

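Per3 was the only core clock gene with an unadjusted p below 0.05 for the difference of its sex effect between the tissues, 1 of 10 against 7.76% of the genes tested. Its log2 fold change of females over males was 0.10 (standard error 0.08) in DRG and 0.64 (standard error 0.17) in the hind paw, and the effect in DRG minus that in the paw was -0.55 (standard error 0.21, unadjusted p = 0.0224). With an adjusted p of 0.537 from edgeR it did not pass, so a difference between the tissues was not established. All 3 female paw libraries (713, 794 and 1113 normalized counts) were above all 3 male paw libraries (631, 511 and 551), while the sexes overlapped in DRG. Female paw library 3, the highest, weighed on the difference, which was -0.34 without it.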

How the results depend on the processing

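All 10 core clock genes kept their lower level in DRG under every alternative run, and all 10 were called with TMM factors, DESeq2, no filter on low counts, females only and without each library in turn. Males only gave 9, Per3 being lost, and a 2-fold limit gave 8, Per3 and Cry2 being lost, and 7838 genes in place of 13426. Between the sexes, 0 core genes were called in DRG or for the interaction under any alternative, and in the paw 0 under any but DESeq2, which called 1. Genes called between the sexes numbered 7 in DRG, 15 with DESeq2 and 1 to 6 without a library. In the paw they numbered 22, and 210 with DESeq2, 40 with no filter, 88 with all 12 libraries in a single fit, 312 with the muscle level as a covariate and 1 to 8 without a library. For the interaction they numbered 2, and 36 with DESeq2, 4 with no filter and 0 to 4 without a library. The cause of these changes was not tested. The median percentile of spread of the core genes in the paw was 59.6, and 29.7 to 71.9 without a library. No relation with Arntl passed the adjustment under any alternative.

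With the replicate block, 10 core genes were called between the tissues and 0 in the other comparisons, and the genes called numbered 13269 between the tissues, 5 in DRG, 8 in the paw and 1 for the interaction. Libraries of the same number did not deviate together, with correlations of their deviations from -0.30 to 0.21, so the number was not taken to pair them.

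With 3 libraries a group, the call of Per3 between the sexes in the paw depended on the tool, and Arntl was not called by either. Low counts limit Npas2 in DRG, and the unknown time of collection cannot be told apart from other differences between libraries.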

Other observations

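Genes that respond to handling and to hormones were read in the same libraries. Of 11 immediate-early genes, which are switched on within minutes of a stimulus, 10 were called lower in DRG and 1 higher, with a median log2 fold change of -3.38. Fosb (-5.82, standard error 0.17), Fos (-4.69, standard error 0.18) and Ier2 (-4.00, standard error 0.10) were lowest in DRG, and Egr2 (1.98, standard error 0.15) was higher. The normalized counts of Fos were 80.8 to 108 in DRG and 1559 to 2991 in the paw, and the 2 tissues did not overlap.

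Of 9 glucocorticoid-induced genes, 2 were called higher in DRG, Fkbp5 (1.51, standard error 0.13) and Tsc22d3 (0.80, standard error 0.08), and 4 lower, led by Mt2 (-1.53, standard error 0.19), Sgk1 (-1.38, standard error 0.12) and Errfi1 (-1.23, standard error 0.07). The median log2 fold change of the list was 0.12, and 3 of its genes were not called. The summed normalized counts of the list, of which Sgk1 was the most abundant in the paw, were 13729, 14241 and 14867 in the female paw libraries, which is the order of Per2 there, and 14037, 17600 and 17053 in the male paw libraries. The sums of the immediate-early genes, led by Dusp1, were 22477, 17034 and 17131 in the female paw and did not have that order. Their part in the deviations of the clock genes was not tested.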
